A study of Rattus norvegicus with 20 samples.

Results

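Primary heart cell cultures of neonatal rats were exposed to celecoxib at reference concentration 1 for 24 h and compared with untreated cultures, by RNA level on single-colour microarrays. The comparison used 5 of the 20 arrays of the study, chosen by sample title: 3 arrays of celecoxib 1 for 24 h (replicates 1 to 3) and 2 untreated arrays (replicates 1 and 2). The other arrays came from cultures given celecoxib at concentration 1 for 6 h, or at 1/5 or 1/25 of it for 6 h or 24 h, with 3 arrays in each of these 5 groups. All cultures had grown for 1 day in DMEM, a standard culture medium, before treatment. The labels give no rat strain, no absolute value of concentration 1, no vehicle and no harvest time for the untreated cultures, so celecoxib, any vehicle and time in culture cannot be told apart here. Although the submitters describe triplicates, 2 untreated arrays were analysed here. Nothing says that replicates were separate cultures, so the p-values measure the spread between arrays, which may be technical.

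Celecoxib is a selective inhibitor of cyclo-oxygenase 2, the inducible enzyme encoded by Ptgs2 that turns arachidonic acid into the common precursor of prostaglandins and thromboxane. Cyclo-oxygenase 1, encoded by Ptgs1, makes the same precursor in many tissues without induction. Cultures of newborn heart hold beating cardiomyocytes together with fibroblasts, endothelial cells, smooth muscle cells and macrophages. The array reads RNA from all of these at once, so fewer cells of a type and less RNA per cell cannot be told apart.

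Levels are given on a log2 scale relative to the 75th percentile of each array, so that 0 is the signal of a probe at that percentile and each step of 1 is a doubling. The share of probes well above background was 72.8% to 74.4% on the celecoxib arrays, against 82.7% and 66.4% on untreated replicates 1 and 2. Untreated replicate 1 had the narrowest spread, with a 75th percentile 4.07 times its median, against 5.24 times on untreated replicate 2 and 5.36 to 5.99 times on the celecoxib arrays. Of 14 cardiomyocyte markers, 13 were measured, all well above background on all 5 arrays, among them Actn2 (sarcomeric alpha-actinin) at a mean of -0.14 with celecoxib and 0.22 untreated, and Actc1 (cardiac actin), whose probe was saturated on all 5 arrays. Fibroblast markers were also bright: Col1a1, the main chain of type I collagen, averaged 2.22 with celecoxib and 2.22 untreated. Summed over the linear signals, the cardiomyocyte markers came to 28.3, 39.8 and 49.0 times the 75th percentile on the celecoxib arrays, against 33.1 and 35.5 times on the untreated arrays, and the fibroblast markers to 21.1, 27.2 and 30.3 times against 23.9 and 22.9 times. The groups overlapped in both sums, and celecoxib replicate 1 was the lowest array in both.

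After 24 h of celecoxib the largest rise by log2 change among the called, named genes was in Gldn, a protein of the node of Ranvier, followed by the immune surface protein Cd83 and 3 genes linked to macrophages and matrix, Mmp12, Mrc1 and Col15a1. The largest falls among genes that stayed above background were in the heparan sulfate enzyme Hs3st1, the axon guidance ligand Slit1 and the neurogenic factor Neurog2. More genes were called lower than higher. Of the 104 called lower, 39 had a mean level over the 5 arrays below -4 and 41 between -4 and -2. Of 27754 genes tested in limma, 129 (0.465%) had a Benjamini-Hochberg adjusted p below 0.05 and are called here: 25 higher (0.0901%) and 104 lower (0.375%) with celecoxib. All 3 celecoxib arrays lay beyond both untreated arrays for 126 of them, which follows largely from calling them on the same values. Of all genes tested, 11.5% lay above and 16.6% below both. At an unadjusted p below 0.05, 1220 genes were higher (4.4%) and 2952 lower (10.6%).

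The number of calls depended on how the spread was estimated and on single arrays. The 5 arrays were scanned on the same day, and the fit over all 20 arrays carried scan day as a term, since 2 of the 6 h groups were scanned over 2 days. Without that term 18 genes were called (0.0649%), 2 higher and 16 lower, all of them among the 129. The untreated arrays shared a slide with none of the celecoxib 24 h arrays, so slide and treatment cannot be told apart in this comparison. With slide as a random block, 280 genes were called with the scan day term and 3 without it. Leaving out 1 array at a time gave 8, 13 and 22 calls when it was celecoxib replicate 1, 2 or 3, 22 when it was untreated replicate 1 and 960 when it was untreated replicate 2. In every one of these 5 fits 6 genes stayed called: Gldn and Cd83 (higher), and Or5t5, Olr1451, Aadacl4fm2 and a transcript known only by its Ensembl identifier (lower). Of the 26 genes named below as rises or falls, 2, 2 and 3 stayed called without celecoxib replicate 1, 2 or 3, 2 (Gldn and Cd83) without untreated replicate 1 and 25 without untreated replicate 2. Without the scan day term 5 of the 26 stayed called (Gldn, Cd83, Hs3st1, Slit1 and Neurog2), and 2 with only the 5 arrays fitted, so the adjusted p-values of the others hold for the fit over all 20 arrays with scan day.

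**Figure D1:**
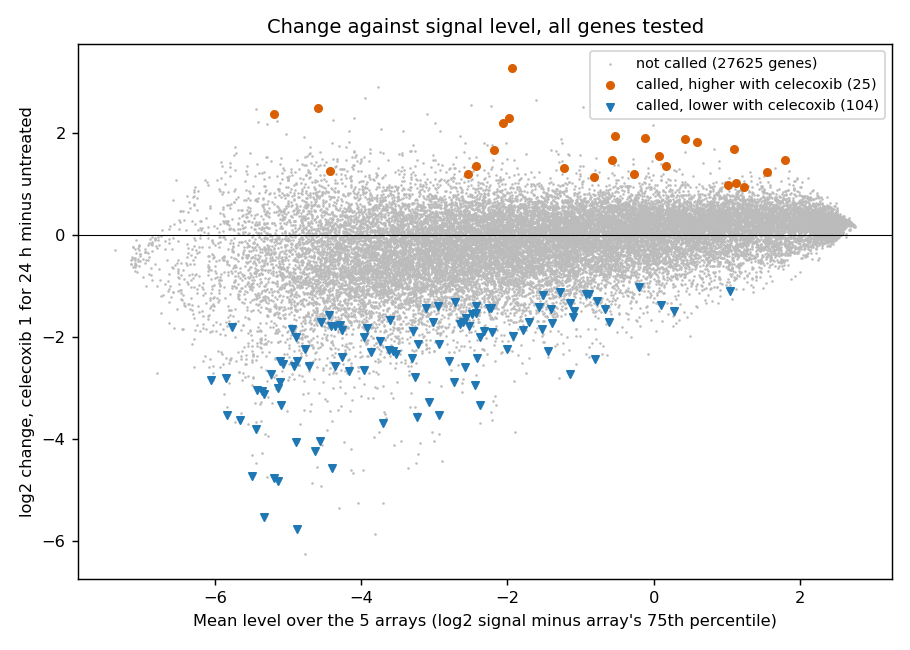
Log2 change (celecoxib 1 for 24 h minus untreated) of each of 27754 genes against its mean level over the 5 arrays, with orange circles for the 25 genes called higher and blue triangles for the 104 called lower. The calls to the left, at low signal, are mainly below 0, and the calls above a level of 0 are mainly above 0.

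The probes behind the leading genes are 60 bases long and are shown because each value below is the signal of a single such sequence. Coordinates are those of the array files on build rn3, and the letters run 5′ to 3′ as the files print them. Gldn was read at chr8:57857929-57857988 (plus strand), Cd83 at chr17:26708709-26708768 (minus), Mrc1 at chr17:88503236-88503295 (plus), Rrm2 at chr19:25568876-25568935 (minus), Hs3st1 at chr14:76441330-76441389 (plus) and Olr1451 at chr10:44951883-44951942 (plus).
Gldn: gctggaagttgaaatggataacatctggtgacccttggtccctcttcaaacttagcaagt
Cd83: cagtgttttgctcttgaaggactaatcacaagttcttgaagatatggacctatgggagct
Mrc1: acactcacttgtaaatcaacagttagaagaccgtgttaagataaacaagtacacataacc
Rrm2: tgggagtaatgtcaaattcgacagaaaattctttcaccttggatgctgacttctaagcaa
Hs3st1: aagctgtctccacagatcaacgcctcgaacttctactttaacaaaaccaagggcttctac
Olr1451: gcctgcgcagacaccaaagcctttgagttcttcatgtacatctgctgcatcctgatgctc
Of the 102 named genes, 98 had their probe on the chromosome that RefSeq gives the gene on build GRCr8. Rrm2 was an exception: both of its probes lie on chromosome 19 of rn3, while RefSeq places the gene on chromosome 6 of GRCr8.

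Gldn, which encodes gliomedin, a secreted protein with which Schwann cells gather sodium channels at nodes of Ranvier, had levels of -0.21, -0.76 and -0.92 on the celecoxib arrays, against -4.01 and -3.77 on the untreated arrays. The celecoxib arrays lay far above both untreated arrays, a 9.56-fold rise (log2 change 3.26 ± 0.28 SE, adjusted p = 0.000137 in limma). Other Schwann cell and glia markers did not share this: Gldn was the only called gene of the 14 measured, 7 of which were higher, and the list's median change was 0.01, against 0.00 over all genes tested. Summed over linear signals, those 14 markers came to 10.3, 13.3 and 15.3 times the 75th percentile with celecoxib and 10.2 and 12.4 times untreated, overlapping between the groups.

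Cd83, a surface protein of mature dendritic cells and activated lymphocytes, read -1.22, -0.83 and -1.50 with celecoxib and -3.09 and -3.67 untreated. Every celecoxib array was above both untreated arrays, by 2.20 ± 0.29 on the log2 scale (4.58-fold, adjusted p = 0.00644). Mrc1, the macrophage mannose receptor, read 1.19, 1.99 and 2.11 with celecoxib and -0.14 and 0.30 untreated, a rise of 1.68 ± 0.35 (3.21-fold, adjusted p = 0.0459). Its lowest celecoxib array, replicate 1, was still clear of the untreated arrays. Mmp12, the elastase of macrophages, read 1.26, 1.39 and 1.31 with celecoxib and -1.05 and 0.06 untreated, which is 3.52-fold higher (log2 change 1.82 ± 0.35, adjusted p = 0.0361). The untreated arrays differed from each other more than the celecoxib arrays did. Ctss, the lysosomal protease cathepsin S of antigen-presenting cells, read -1.55, -1.60 and -1.66 with celecoxib and -3.70 and -3.11 untreated; at a log2 difference of 1.80 ± 0.38 its adjusted p of 0.0540 missed the threshold. A further Ctss probe gave a difference of 1.91.

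The macrophage and dendritic cell markers did not move as a block. Of 19 listed, 17 were measured: 10 were higher and 7 lower with celecoxib, 2 were called (Cd83 and Mrc1, both higher), and the median change was 0.28, against 0.00 for all genes tested. That median ranged from -0.46 to 0.58 over the alternative processings. All 3 celecoxib arrays were above both untreated arrays for 3 markers (Mrc1, Cd83 and Ctss) and below both for 3 (Cd14, Lyz2 and Cd163), each 17.6% of the list, against 11.5% and 16.6% of all genes. The lipopolysaccharide co-receptor Cd14 had a log2 difference of -0.44, the lysozyme gene Lyz2 of -0.77 and the haemoglobin scavenger receptor Cd163 of -1.05, none of them called. Tyrobp, a signalling adaptor of myeloid cells and the brightest marker of the list, averaged 2.38 with celecoxib and 2.08 untreated. The summed linear signal of the 17 markers was 13.3, 16.7 and 17.2 times the 75th percentile with celecoxib and 14.0 and 13.3 times untreated, so the groups met at celecoxib replicate 1. None of the 17 was below background on all 5 arrays. The part of macrophage number in the rises of Cd83, Mrc1 and Mmp12 was not tested.

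Col15a1, a collagen of basement membranes, read 1.00, 0.59 and 0.46 with celecoxib and -0.59 and -1.13 untreated (log2 change 1.54 ± 0.28, adjusted p = 0.0317). Rrm2, the inducible small subunit of ribonucleotide reductase that supplies deoxynucleotides for DNA synthesis, read 0.21, -0.31 and 0.15 with celecoxib and -1.22 and -1.66 untreated (1.46 ± 0.26, adjusted p = 0.0251). Both genes had groups that were far apart relative to the spread within them. The dimmer Rrm2 probe read -2.92, -3.25 and -2.80 with celecoxib and -3.07 and -6.22 untreated, so on that probe the groups overlapped. The remaining rises were smaller: Chchd6, a part of the complex that shapes mitochondrial cristae (1.35, adjusted p = 0.0355), the receptor phosphatase Ptpro (1.30, 0.0449), the SUMO ligase Pias2 (1.23, 0.031), the DNA helicase Ddx11 (1.13, 0.0361) and Ypel5 (0.97, 0.0498). Pias2 had the smallest spread, with 2.09, 2.01 and 2.03 on the celecoxib arrays and 0.83 and 0.80 on the untreated arrays. The dimmer probe of Ddx11 differed by -0.35 and that of Ypel5 by 0.61, so the 2 Ddx11 probes disagreed in sign.

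**Figure D2:**
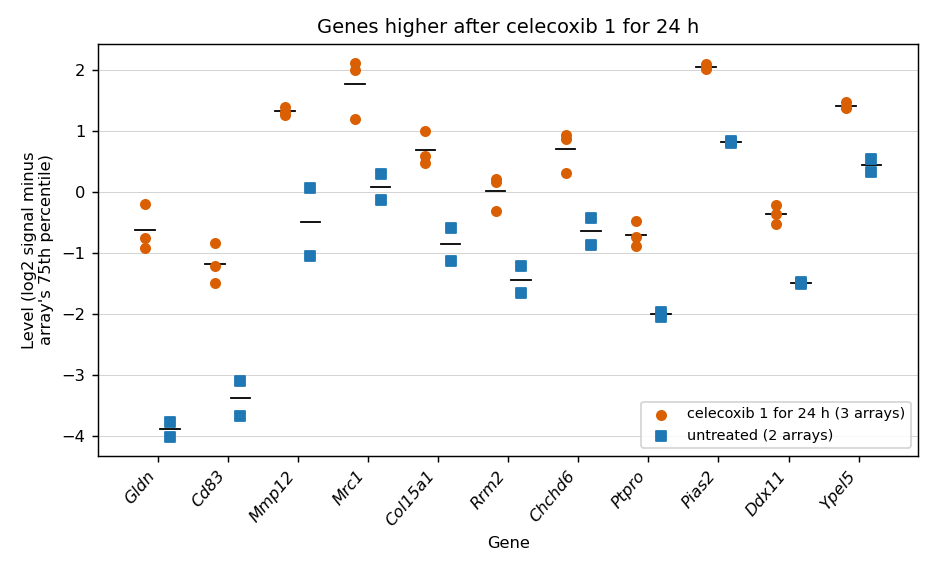
Level on each array (log2 signal relative to the array's 75th percentile) of the 11 genes called higher that met the naming rule, with celecoxib 1 for 24 h as orange circles, untreated as blue squares and group means as bars. As the rule requires, the circles lie above both squares for every gene. The gap is widest for Gldn, whose celecoxib arrays sit between -0.92 and -0.21 and untreated arrays at -4.01 and -3.77.

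Hs3st1, a sulfotransferase that adds the 3-O-sulfate with which heparan sulfate binds antithrombin, read -3.57, -3.75 and -3.83 with celecoxib and 0.61 and -1.37 untreated. It was 10.1-fold lower with celecoxib (log2 change -3.33 ± 0.50, adjusted p = 0.0221). The celecoxib arrays agreed closely while untreated replicates 1 and 2 were almost 2 log2 units apart, and without untreated replicate 1 the change was -2.35 with an adjusted p of 0.0988. Among the 24 measured genes for heparan sulfate enzymes and core proteins, Hs3st1 was the only call, 13 were higher, and the median was 0.01. On all celecoxib arrays 4 of these genes lay above (16.7%) and 3 below (12.5%) both untreated arrays, near the 11.5% and 16.6% of all genes, among them the syndecan gene Sdc2 (0.57) and the glypican gene Gpc4 (-1.13), neither called.

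Slit1, a secreted repellent of growing axons, read -4.32, -3.53 and -3.79 with celecoxib and -0.52 and -1.47 untreated (log2 change -2.88 ± 0.46, adjusted p = 0.0241). Neurog2, a transcription factor that starts neuronal differentiation, read -4.49, -4.19 and -4.43 with celecoxib and -1.75 and -1.43 untreated (-2.78 ± 0.46, adjusted p = 0.0241). In both genes every celecoxib array lay more than 2 log2 units below the lower untreated array. Of 31 measured axon guidance genes, 8 were higher, Slit1 alone was called, 8 lay below (25.8%, against 16.6% of all genes) and 2 above (6.45%, against 11.5%) both untreated arrays on all celecoxib arrays, and the median was -0.45. After centring on array medians, which lifts all genes, it was -0.04, or -0.34 relative to the median of all genes. Slit2 and Slit3, the other Slit ligands, were the 2 above, with log2 differences of 0.88 and 0.87, neither called. The list's shares were near those of all genes with a level between -4 and -2, though its members were not matched to that range. Of those genes, 25.4% lay below and 6.71% above both untreated arrays, with a median of -0.32. Neuron markers (14 measured, 6 higher, Neurog2 alone called) had a median of -0.53, and of -0.18 after quantile normalisation. Their summed signal was 8.49, 10.4 and 8.42 times the 75th percentile with celecoxib and 11.7 and 8.93 times untreated.

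Aldh3a1, an aldehyde dehydrogenase inducible through the aryl hydrocarbon receptor, read -2.17, -2.45 and -2.43 with celecoxib and 0.02 and -0.17 untreated, a tight 4.84-fold fall (log2 change -2.28 ± 0.42, adjusted p = 0.0322). Of 15 measured genes of xenobiotic metabolism, 5 were higher and Aldh3a1 alone was called (median -0.36). Notch1, the receptor of the Notch pathway, read -4.02, -4.01 and -4.22 with celecoxib and -2.36 and -1.52 untreated (-2.15 ± 0.37, adjusted p = 0.0251). Bdkrb1, the inducible B1 receptor of kinins, read -4.63, -4.69 and -4.11 with celecoxib and -1.79 and -2.61 untreated (-2.28 ± 0.42, adjusted p = 0.0325). All 3 genes had groups clear of each other, as the naming rule requires. The other falls that met the naming rule were the desmosome plaque gene Pkp1 (-2.42), the replication kinase Cdc7 (-2.23), the tyrosine kinase Ptk6 (-2.09), Ccdc106 (-2.01), the cytokine Il24 (-1.85), the Rab regulator Tbc1d24 (-1.82), the interleukin 9 receptor Il9r (-1.75) and the odorant receptors Or4c15 (-2.43) and Or8b57 (-1.86). Their adjusted p-values ran from 0.0251 for Ptk6 and Ccdc106 to 0.0477 for Cdc7. For Pkp1, Cdc7, Or8b57, Or4c15 and Il24 the untreated arrays were far apart, at -0.14 and -1.80 for Pkp1, with untreated replicate 1 the higher in each. Without untreated replicate 1 their changes were -1.58 for Pkp1, -1.35 for Cdc7, -1.06 for Or8b57, -1.79 for Or4c15 and -1.23 for Il24, none called.

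**Figure D3:**
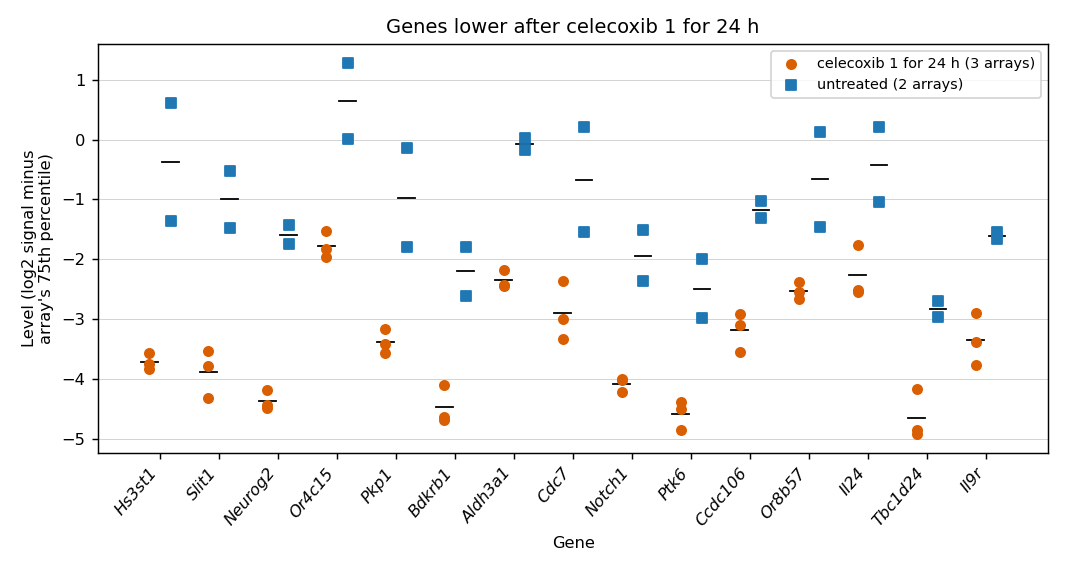
Level on each array (log2 signal relative to the array's 75th percentile) of the 15 largest falls that met the naming rule, with celecoxib 1 for 24 h as orange circles, untreated as blue squares and group means as bars. As the rule requires, the circles lie below both squares for every gene. The squares are far apart for Hs3st1 (0.61 and -1.37) and close for Aldh3a1 (0.02 and -0.17).

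Signal level went together with the direction of change over all genes. Among 3596 genes with a mean level below -4 the median log2 change was -0.56, with 3 genes called higher and 39 lower. The median was -0.32 between -4 and -2 (4 higher, 41 lower), -0.04 between -2 and 0 (8 higher, 21 lower) and 0.18 above 0 (10 higher, 3 lower). Of the 104 genes called lower, 29 were below background on all celecoxib arrays, and of the 25 called higher 3 were below it on both untreated arrays. These were tested only because all arrays of another group were above background, which asks for 2 arrays in the untreated group and 3 in the others. Odorant receptor genes, a group picked after its values were seen and not known for a role in heart muscle, had 390 members tested, a median change of -0.89, 7 called lower (1.79%) and 0 called higher in limma. For comparison, 0.375% of all genes were called lower, 1.08% of those with a level below -4 and 0.56% of those between -4 and -2. The part of background signal, of the filter on dim probes and of array spread in these falls was not tested. The balance of calls moved with the processing: 80.6% were lower here, against 51.1% after quantile normalisation, 59.3% after centring on array medians, which shifted the median of all genes to 0.30, 65.7% with probes above background on all arrays, and 54.5% without untreated replicate 1. With no filter on dim probes 87.1% were lower.

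Some genes were above background in a single group and have only a bound, the mean of the bright group over, on each dim array, the higher of the probe's own signal and the dimmest signal called well above background. Among genes with a symbol, 64 were above background on the untreated arrays and on no celecoxib array, and 23 the other way round. The largest bound was for Gzma, the serine protease granzyme A of cytotoxic lymphocytes, at least 17.7-fold lower with celecoxib. It read -6.94, -7.43 and -5.74 with celecoxib and -1.18 on untreated replicate 1, while its spot on untreated replicate 2 was marked an outlier and left out, so that value rests on a lone untreated array. Aadacl4fm2 followed at at least 14.98-fold lower, with -6.50, -7.63 and -7.42 on celecoxib arrays and -0.93 and -1.91 on untreated arrays. Proser3 (at least 12.7-fold), Kiaa0408L (at least 11.2-fold) and the odorant receptor Olr1451 (at least 8.45-fold) were also lower. All 5 were called in limma, with adjusted p-values between 0.00138 for Aadacl4fm2 and 0.0320 for Kiaa0408L. They were picked for signal above background on the untreated arrays only, so these p-values are no separate support. Bounds in the other direction were small. Fcrl2, an Fc receptor-like protein, was at least 3.37-fold higher with celecoxib, the deacetylase Hdac11 2.37-fold, the helicase Mcm8 2.24-fold, the meiotic recombination factor Mnd1 2.20-fold and the RNA-binding protein Ptbp3 2.19-fold, each "at least", and none of the 5 was called. These bounds compare group means. Ptbp3 read -3.15, -4.66 and -2.50 with celecoxib and -5.32 and -3.81 untreated, so its groups overlapped. For Mnd1 the lowest celecoxib array (-4.40) was close to the higher untreated array (-4.45).

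No mitosis gene was called, and most were measured higher with celecoxib. Of 35 measured mitosis genes 28 were higher, against 50.2% of all genes tested, and the median change was 0.53. Of these, 9 had an unadjusted p below 0.05 in the higher and 1 in the lower direction, and all 3 celecoxib arrays were above both untreated arrays for 15 (42.9%, against 11.5% of all genes tested and 17.5% of those with a level above 0) and below both for 1 (2.86%, against 16.6% and 5.03%). Nusap1, a spindle protein, read -4.09, -3.88 and -3.47 with celecoxib and -4.89 and -5.42 untreated (adjusted p = 0.0960, above background on 1 of the 2 untreated arrays). Ube2c, which partners the anaphase-promoting complex, read -1.39, -1.22 and -1.38 with celecoxib and -2.03 and -2.19 untreated (adjusted p = 0.123). Both had celecoxib arrays above both untreated arrays. The median of the mitosis list lay between 0.44 and 0.84 in all 18 alternative processings. It was not particular to concentration 1: against the same untreated arrays it was 0.57 at 1/25 and 0.44 at 1/5 after 24 h. Of 29 measured DNA replication genes, 21 were higher, Rrm2 was called, and the median was 0.23. Cdc7, the kinase that starts replication origins, was called in the other direction, 4.70-fold lower, as given above. Cell cycle inhibitors and p53 targets had a median of 0.12 over 23 genes with no call: Cdkn1b had a log2 difference of 0.45 and Gadd45a of 0.48.

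Prostanoid genes, the pathway that holds the drug's target, had no call among 15 measured of 25, with 6 higher and a median of -0.15, which was 0.15 after centring on array medians, where all genes had a median of 0.30, so that relative to all genes it stayed at -0.15. Ptgs2 itself read -3.72, -4.17 and -3.23 with celecoxib and -3.87 and -2.39 untreated, and the groups overlapped (log2 difference -0.58 ± 0.39, adjusted p = 0.510). Ptgs1 read 1.501, 1.76 and 1.63 with celecoxib and 1.03 and 1.73 untreated (0.25 ± 0.22, adjusted p = 0.625). The prostaglandin E synthase Ptges (-0.31, adjusted p = 0.676) and the prostacyclin synthase Ptgis (-0.18, 0.813) also had overlapping groups. The smallest p-values of the list were those of the prostaglandin F receptor Ptgfr (0.80, adjusted p = 0.352) and the cytosolic phospholipase Pla2g4a (0.72, 0.403).

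Cardiomyocyte genes were close to 0 on average. The marker list had a median change of -0.01 with no call among 13, and 6 higher. The alpha and beta myosin heavy chains differed more among celecoxib arrays than between the groups: Myh6 read 0.23, 1.63 and 2.38 with celecoxib and 0.49 and 1.22 untreated, and Myh7 read 0.61, 1.51 and 2.26 against 0.85 and 1.52. Celecoxib replicate 1 was the lowest array in both. The natriuretic peptide gene Nppa read -0.94, 0.13 and 1.19 with celecoxib and 0.40 and 0.61 untreated (-0.37 ± 0.49, adjusted p = 0.748). Nppb read 2.74, 2.66 and 2.58 with celecoxib and 2.36 and 2.55 untreated (0.21 ± 0.26, adjusted p = 0.742), with the probe saturated on all 5 arrays, which compresses any change. Sarcomere genes (24 measured, median -0.02), calcium handling and ion channel genes (26, median 0.11) and hypertrophy genes (17, median 0.00) had no call. The members with the smallest p were the Z-disc protein Csrp3 (0.62) and the ventricular light chain Myl2 (0.81) for the sarcomere, the potassium channel subunit Kcnip2 (below background on all celecoxib arrays and at least 5.32-fold lower there, adjusted p = 0.0742) and the connexin Gja5 (1.14) for channels, and Xirp2 (0.78) and the natriuretic peptide receptor Npr1 (-0.70) for hypertrophy. Only 1 of the 2 Myl2 probes was higher with celecoxib.

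Most cardiac transcription factors were measured lower with celecoxib. Of 14 measured, 4 were higher, none was called, 5 lay below (35.7%, against 16.6% of all genes) and 2 above (14.3%, against 11.5%) both untreated arrays on all celecoxib arrays, and the median was -0.51. Tbx5, needed for heart and forelimb formation, read -3.40, -3.79 and -3.44 with celecoxib and -1.88 and -3.28 untreated (adjusted p = 0.245). Hand2, a factor of right ventricle development, read 1.43, 2.37 and 0.78 with celecoxib and 2.32 and 2.46 untreated (adjusted p = 0.230). For Hand2, celecoxib replicate 2 lay between the untreated arrays, and only 1 of its 2 probes was lower with celecoxib.

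**Figure D4:**
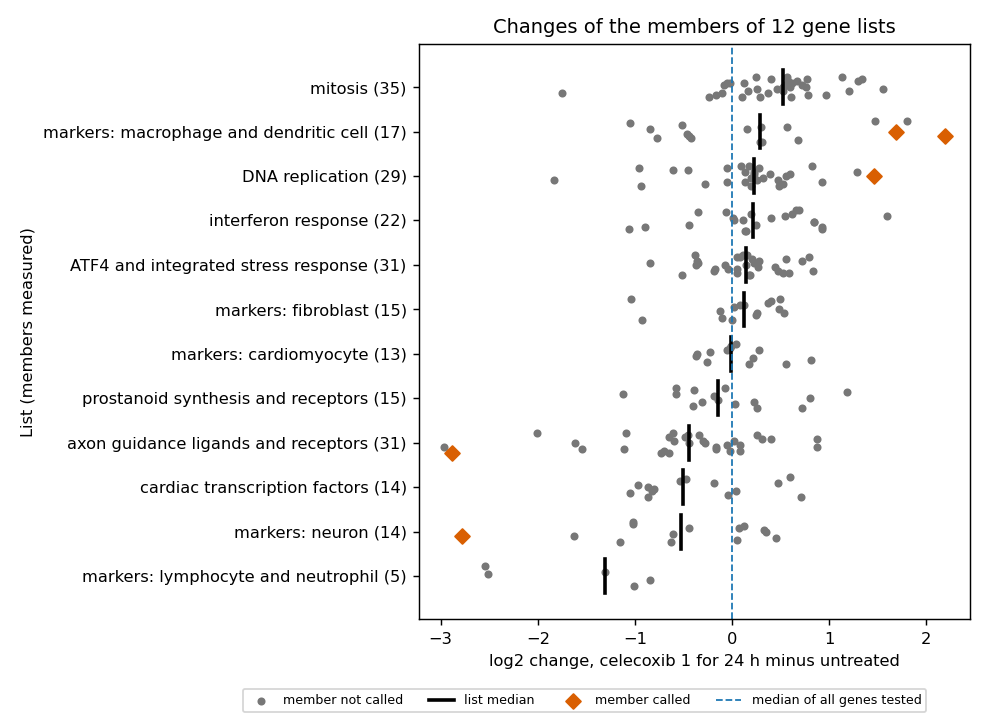
Log2 change (celecoxib 1 for 24 h minus untreated) of each measured member of 12 gene lists, with black bars at list medians, orange diamonds for called members and a dashed line at the median of all genes tested. Mitosis has the highest list median shown, 0.53, and lymphocyte and neutrophil markers the lowest, -1.31, with called members in 4 of the lists.

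Stress and metabolic lists held no call. Medians were 0.15 for 31 ATF4 and integrated stress genes (21 higher), 0.04 for 22 endoplasmic reticulum chaperones and unfolded protein genes, 0.09 for 18 cytosolic heat shock genes and -0.04 for 32 NRF2 oxidative stress genes. The smallest p-values in them belonged to the pseudokinase Trib3 (0.84) and Cebpg (0.55), to Herpud1 (0.73) and Dnajb9 (0.52), to Hsf1 (-1.05) and Hspe1 (0.42), and to Abcc1 (-0.73) and Gsta2 (below background on all celecoxib arrays and at least 4-fold lower there). Herpud1, which serves degradation of proteins from the endoplasmic reticulum, read 1.94, 1.88 and 2.09 with celecoxib and 1.14 and 1.33 untreated, with an adjusted p of 0.103. Only 1 of the 2 Herpud1 probes was higher with celecoxib. PPAR and fatty acid oxidation genes had a median of 0.08 over 25, with the acyl-CoA thioesterase Acot2 at 0.86 (adjusted p = 0.0987) and Angptl4 at -1.13. Saturation, which compresses any change, affected the Acot2 probe on 2 celecoxib and 0 untreated arrays and the Hspe1 probe on 3 and 1. The Herpud1 and Dnajb9 probes were saturated on 1 celecoxib array each. Respiratory chain genes had 25 of 33 higher but a median of only 0.08 (-0.02 after quantile normalisation), with Ndufa2 at 0.52 and Ndufs4, below background on all 5 arrays, at -1.15. Cholesterol synthesis (median 0.04, Fasn 0.51), glycolysis and hypoxia (-0.08, Vegfa -0.87), BCL2 family genes (0.12, Bcl2 -0.71 and Bnip3 0.48) and circadian genes (-0.06, Nfil3 -1.58 and Per1 -1.44) were mixed in direction. Most carbonic anhydrase genes were measured lower: 7 of 10, with a median of -0.58 (Car1 -1.17 and Car9 -0.90). That median lay between -0.81 and -0.28 over the alternative processings. On all celecoxib arrays 4 of the 10 lay below both untreated arrays (40%, against 16.6% of all genes) and 0 above both. Only 1 of the 2 Bcl2 probes was lower with celecoxib.

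The lists of inflammatory and interferon genes held no call; the called cytokine Il24 and the receptors Bdkrb1 and Il9r, given above, are not in them. Of 26 cytokine and NF-kappa-B genes 11 were higher and the median was -0.11. Tnf, the inflammatory cytokine tumour necrosis factor, read -6.03, -5.15 and -5.56 with celecoxib, where it was below background on all arrays, and -3.19 and -4.06 untreated, where 1 of 2 arrays was above it (adjusted p = 0.0540). Lcn2, the iron-trapping lipocalin, had a difference of -1.03. Of 22 interferon response genes 17 were higher, with a median of 0.22. Rsad2, the antiviral protein viperin, read -2.94, -2.95 and -2.52 with celecoxib and -4.19 and -4.61 untreated (1.60 ± 0.35, adjusted p = 0.058). Immediate early genes had a median of 0.19 over 23 (Atf3 0.72, Egr1 0.52), lysosome and autophagy genes of 0.03 over 33 (Ctss above, Npc1 -0.84), matrix and TGF-beta genes of 0.11 over 38 (the osteopontin gene Spp1 1.04, Tgfb2 0.87) and matrix metalloproteases of -0.03 over 13, with Mmp12 alone called. Only 1 of the 2 Npc1 probes was lower with celecoxib. The Tgfb2 probe was saturated on 2 celecoxib arrays and the Egr1 probe on 1.

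Markers of other cell types gave 2 lists with every measured member lower. The 5 measured lymphocyte and neutrophil markers had a median of -1.31, and their summed signal was 0.49, 0.64 and 0.61 times the 75th percentile with celecoxib and 5.04 and 0.98 times untreated. The higher value comes from untreated replicate 1. S100a9, a calcium-binding protein of neutrophils, read -5.82, -4.84 and -5.39 with celecoxib and -2.66 and -3.00 untreated (adjusted p = 0.0960, above background on 1 of the 3 celecoxib arrays), and Nkg7, of cytotoxic lymphocytes, read -2.45, -1.65 and -2.14 against 1.95 and -1.02. The 3 measured erythroid markers had a median of -0.89 and sums of 0.86, 0.87 and 0.80 times with celecoxib and 1.72 and 1.84 times untreated, which did not overlap. Ahsp, the chaperone of alpha-globin, had a difference of -0.98 and the haem synthesis enzyme Alas2 of -0.89, neither called. Endothelial markers had a median of 0.04 over 9, with Cldn5 at -2.24 and Plvap at -1.80. Plvap was above background on 1 of the 3 celecoxib arrays, and the untreated arrays of Cldn5 were far apart, at -3.77 and -1.06. Medians were 0.12 for fibroblast markers (15, Mfap5 0.54 and Dpt -1.04), 0.16 for smooth muscle and pericyte markers (11, Pdgfrb 0.75 and Myh11 -1.68) and -0.13 for epicardial markers (10, Upk3b -0.71 and Bnc1 -0.81), with no call.

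Whether these levels followed concentration was tested without the untreated arrays. No slide held 24 h arrays of both 1 and 1/25, so slide and concentration cannot be told apart between them. Concentrations 1 and 1/5 shared a slide in part. Between celecoxib 1 and celecoxib 1/25 at 24 h, 2 of 27759 genes were called (0.0072%), and between 1 and 1/5 at 24 h 4 of 27758 (0.0144%), none of them among the genes named above. Gldn averaged -0.63 at concentration 1, against -0.75 at 1/5 and -0.73 at 1/25, a difference of 0.10 ± 0.25 SE from 1/25. Cd83 averaged -1.18 at 1, against -0.97 at 1/25 (-0.21 ± 0.26), and Hs3st1 -3.71 against -3.30 (-0.41 ± 0.45). The widest differences from 1/25 among the 26 named rises and falls were those of Slit1 (-1.05 ± 0.41) and Aldh3a1 (-0.95 ± 0.37), with adjusted p-values of 0.959 and 0.963. Rsad2, not called against untreated, differed by 1.30 ± 0.31 from 1/25 (adjusted p = 0.637) and by 1.24 from 1/5 (0.257); against the shared untreated arrays its difference was 1.60 at 1, 0.36 at 1/5 and 0.29 at 1/25. Read against the same untreated arrays, which the comparisons share, Gldn changed by 3.26 at 1, 3.14 at 1/5 and 3.16 at 1/25, and Hs3st1 by -3.33, -3.06 and -2.92.

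**Figure D5:**
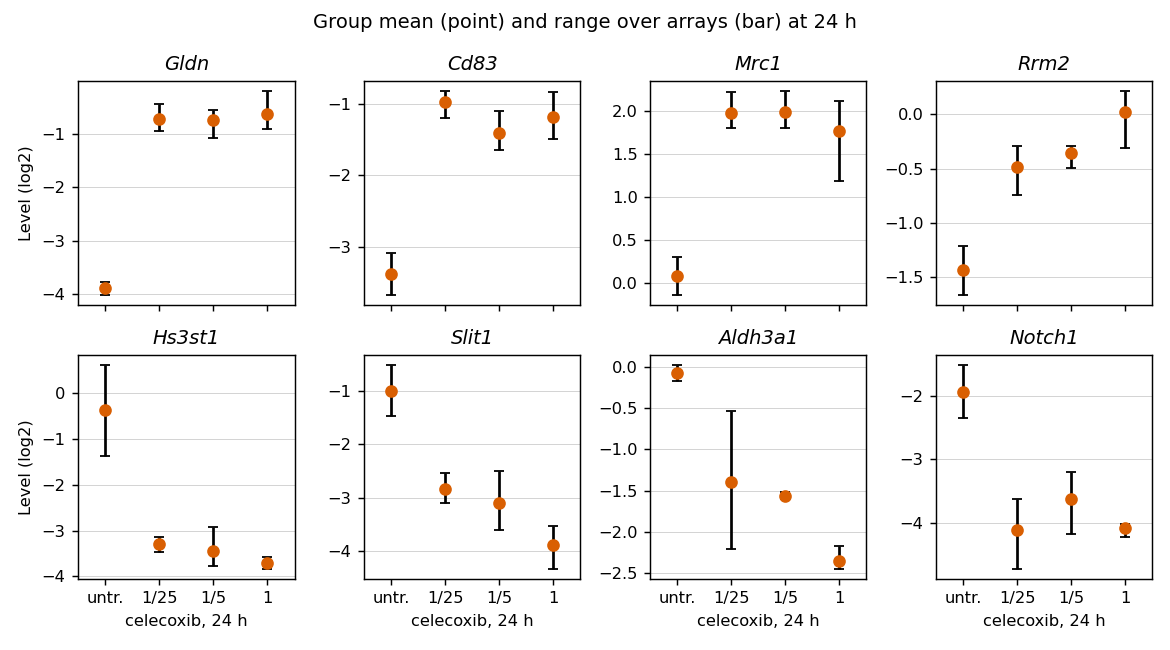
Level (log2 signal relative to the array's 75th percentile) of 8 named genes in untreated cultures and after 24 h at celecoxib 1/25, 1/5 and 1, with points at group means and bars over the range of the 2 untreated or 3 celecoxib arrays. The celecoxib groups lie together and away from untreated, as for Gldn at -0.73, -0.75 and -0.63 against -3.89, and the ranges at 1 and 1/25 overlap for these genes except Hs3st1 and Slit1.

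Time at the same concentration was compared without the untreated arrays too. Again slide and time cannot be told apart, since no slide held concentration 1 arrays of both times. Between 24 h and 6 h at concentration 1, 390 of 27760 genes were called (1.40%), including 3 of the 11 named rises: Chchd6 (1.47 ± 0.24 higher at 24 h, adjusted p = 0.00866), Ypel5 (0.93) and Ddx11 (0.88). Chchd6 averaged 0.70 at 24 h and -0.95 at 6 h, next to -0.65 untreated. Gldn was not called between the times and averaged -0.63 at 24 h and 0.35 at 6 h (-1.03 ± 0.27, adjusted p = 0.0725). Ptgs2 was the member of the prostanoid list with a called difference among those named: it averaged -3.71 at 24 h and -1.41 at 6 h (-2.01 ± 0.37 in the fit, adjusted p = 0.0153). Of the 6 h arrays of concentration 1, 1 was scanned on another day. The count rested on the scan day term: 49 genes were called without it and 188 among the arrays of the same scan day as the 24 h arrays. Taking slide as a random block gave 611 calls with scan day and 3 without, and leaving out 1 array gave 81 (without 24 h replicate 2) to 615 (without 24 h replicate 3). Among the arrays of that scan day Chchd6 alone stayed called of the 7 genes named in this text that were called between the times (1.61 ± 0.25, adjusted p = 0.0251), and Ptgs2 had an adjusted p of 0.0695 (-1.94 ± 0.42).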

How the data were processed

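RNA of neonatal rat heart cultures was hybridised singly, labelled with Cy3, to 20 Agilent arrays of 43379 non-control spots. The deposited intensity values came from Agilent Feature Extraction 9.5.3.1, which subtracted background and detrended each array, per the file headers. The deposited table of the series holds ratio values whose making is not given in the sources used here; 99.6% of them lay within 1% of processed signal over the array median over the untreated mean, as set against the scanner values, so it served as an alternative only.

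Each processed signal was taken as log2 minus the array's 75th percentile, after outlier spots were left out. A probe was kept if all arrays of some group had it well above background, and the brightest kept probe stood for a gene (27771 genes, 11888 with a symbol matched in RefSeq, GRCr8). One linear model over all 20 arrays (7 group means and scan day) was fitted with lmFit and eBayes in limma 3.58.1 (R 4.3.3). Calls had a two-sided Benjamini-Hochberg adjusted p below 0.05 over all genes. An exact permutation test of 3 against 2 arrays cannot go below 0.2, so none was used. The number of arrays limits the precision.

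The members and gene lists were chosen with earlier results of these data known. Named genes were up to 15 largest rises and falls among called symbols above background on all 5 arrays with groups that did not overlap, up to 4 called members of a list (or the 2 with the smallest p where none was called), the 5 largest bounds each way, and Ptgs1, Ptgs2, Ptges, Ptgis, Nppa, Nppb, Myh6 and Myh7. Others named in a list's account were chosen after their values were seen. Alternatives varied the scan day term, arrays fitted, scaling, background correction, filter, probe choice, slide and replicates. The scripts were tested on simulated data. Some genes that the naming rule picks are not reported here.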

Additional observations from a re-analysis of the deposited data

Results flagged for a closer look

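A difference between 24 h and 6 h at concentration 1 that passed the threshold in limma singled out 7 of the named genes. Higher at 24 h than at 6 h were Chchd6 by 1.47 ± 0.24 on the log2 scale (SE, adjusted p = 0.00866), Rsad2 by 1.83 ± 0.33 (0.0148), the platelet-derived growth factor receptor gene Pdgfrb by 1.16 ± 0.26 (0.0427), Ypel5 by 0.93 ± 0.19 (0.0286) and Ddx11 by 0.88 ± 0.21 (0.0481). Lower at 24 h were Ptgs2 (-2.01 ± 0.37, 0.0153) and the globin chaperone gene Ahsp (-1.20 ± 0.24, 0.0232). No slide held concentration 1 arrays of both times. Among the arrays of the 24 h scan day, Chchd6 alone of these 7 stayed called. Groups of 2 or 3 arrays were too small for the test of a lone array far from the rest.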

How the results depend on the processing

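The 129 calls against untreated became 18 without the scan day term, 24 with only the 5 arrays fitted, 424 with normexp background correction, 70 with probes above background on all arrays, and 280 and 3 with slide as a random block with and without scan day. Leaving out 1 array gave 8 to 960. Quantile normalisation (143), array median centring (86), no filter (140), the authors' table (87), the mean over probes (125) and the 24 h and untreated arrays alone (163) stayed within 1.5 times. Slide as a fixed term could not be estimated, and no slide held both groups.

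Against 1/25 the 2 calls became 0 in limma (439 to 2044 at an unadjusted p below 0.05) without scan day, with 24 h and untreated arrays only, with only the compared arrays, after quantile normalisation and with slide as a random block without scan day, and 1 with normexp or with probes above background on all arrays; leaving out 1 array gave 0 to 1. Between 24 h and 6 h, with alternatives chosen after seeing the data, the 390 calls became 49 without scan day, 0 in limma with only the compared arrays (3820 at an unadjusted p below 0.05), 611 and 3 with slide as a random block with and without scan day, 188 with the first scan day only, and 81 to 615 leaving out 1 array. With above background on 2 of 3 celecoxib arrays counted as above, bounds numbered 240 in place of 87. Same-numbered arrays did not deviate together on average (mean r = -0.0208, against 0.0114 for other numbers), while 11 of 57 same-number pairs had r above 0.1. In groups this small such correlations cannot show whether the numbers pair the arrays. A replicate block gave 23 calls against untreated, 1 against 1/25 and 295 between 24 h and 6 h.

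Of the named genes' values under the alternatives, 1376 kept direction and side of the threshold, 217 missed it, 30 newly passed and 14 turned sign, none of the 26 rises and falls among the last. Sign turned for Actc1 with quantile normalisation (-0.13) and the mean over probes (-0.0503), Nppb with quantile normalisation (-0.12), and Ptgis with median centring (0.12) and the authors' table (0.12), both of which shift all genes by 0.30, as much as Ptgis. Leaving out 1 array gave ranges across 0 for Dpt (-2.54 to 0.46), Alas2 (-1.80 to 0.0177), Bnc1 (-1.71 to 0.0880), Ptges (-0.66 to 0.0376), Ptgs1 (-0.10 to 0.60), Myh7 (-0.12 to 0.70), Nppa (-0.91 to 0.16) and Ptgs2 (-1.32 to 0.16). The cause was not tested. Signal near background limits the dim genes called lower.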
